A study of Homo sapiens with 24 samples.

Results

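SERPINF1 and 9 secreted factors that act on blood vessels were followed through a TGFβ stimulation and its blockade in 2 established human hepatocellular carcinoma (HCC) lines, PLC/PRF/5 and SNU-449. The 10 genes, SERPINF1, THBS1, THBS2, ANGPTL4, ANGPT2, PDGFA, PDGFB, FGF2, VEGFB and VEGFC, are 10 of 22439 genes that the arrays measure and that could be named through a RefSeq accession, and 14 probes report on them. SERPINF1 leads the group because its rise with galunisertib alone was the largest of 16101 genes tested in SNU-449 cells. The other members are known to act on vessels, and the list was drawn up with earlier results of these data known. SERPINF1 was thus chosen by its levels in the control and galunisertib arrays of SNU-449, which are given as a description, with no test.

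Each line was serum-starved overnight and then left untreated (control) or treated for 16 h with recombinant human TGFβ1 at 1 ng/mL, with galunisertib (LY2157299), a small-molecule inhibitor of the TGFβ type I receptor kinase, at 10 µM, or with both. Each of the 8 groups holds 3 independent cultures, replicates 1 to 3, on 24 one-color arrays. Both are cell lines cultured alone, so the data describe transcripts of tumor cells and not a response of vessels. Levels are log2 of the probe signal over the 75th percentile of its array, so 0 is the level of a probe at that percentile and a difference of 1 is a doubling. The lowest level that can be given is -3.61, and a probe that the scanner software did not place well above background has only an upper bound. A gene with 2 probes is given by its brighter probe unless stated, and a change is called where limma's Benjamini-Hochberg adjusted p, taken over all genes of the fit, was below 0.05.

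As background, new vessels form when growth factors released by a tissue outweigh inhibitors of endothelial cells. Ligands of the VEGF and FGF families drive endothelial growth, PDGF dimers recruit the pericytes that coat a new vessel, angiopoietins set whether a vessel is stable or ready to sprout, and thrombospondins and the serpin-family protein PEDF, the product of SERPINF1, restrain the process. In the liver, PEDF is made by hepatocytes, and HCC is a tumor rich in arterial vessels. TGFβ acts through receptor kinases and SMAD proteins, which bind DNA at the short CAGA box, and it is known to act on vessels directly and through the factors that other cells secrete.

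The arrays were of even quality. Between 41.6% and 49.6% of probes were well above background, 0 spots were saturated, and the 75th percentile lay between 104 and 185 intensity units. As a check of the treatments, 3 feedback genes of the pathway were read, SMAD7, SKIL and PMEPA1, and all 3 fell in both lines when galunisertib was added to TGFβ1. With TGFβ1 alone, 2 of 3 were called higher in SNU-449 and all 3 in PLC/PRF/5. In PLC/PRF/5, PMEPA1 was well above background with TGFβ1 alone and in no other group. It entered that fit only through the group where it was high, so nothing is read from its calls there. With both agents their SNU-449 means were 3.16, -0.68 and 5.95, against 1.79, -2.76 and 3.20 with galunisertib alone. In PLC/PRF/5 they were 0.80, -0.34 and -3.61, against 1.09, -0.55 and -3.61. Whether the blockade was complete was not tested. All 6 hepatocyte markers were well above background on every PLC/PRF/5 array, against 3 of 6 on every SNU-449 array, where APOB and TF were below it on all. Of 7 endothelial markers, PECAM1, TEK and TIE1 stayed at background on all arrays of both lines. VWF was well above it on all 12 arrays of each line at a low level, EMCN on all 12 of SNU-449 and 0 of PLC/PRF/5, ESAM on 11 of PLC/PRF/5 and 0 of SNU-449, and CDH5 on 8 of PLC/PRF/5 and 5 of SNU-449. Of 4 mural and fibroblast markers, DCN and LUM stayed at background and PDGFRB was well above it on all 12 arrays of each line. RGS5 was above it on all 12 of SNU-449, with group means from 5.34 to 6.09, and on 1 of PLC/PRF/5. The leukocyte marker PTPRC was above it at a low level on 12 of PLC/PRF/5 and 11 of SNU-449, and CD3E on 4 and 0. The part of these transcripts in the results was not tested. The position of a group did not vary over the 3 slides. Arrays with TGFβ1 filled the second row and the others the first. Within each line, arrays with galunisertib filled the column beside those without it, and the lines held separate columns. Effects of TGFβ1, of galunisertib and of the line thus cannot be told apart from those of position.

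SERPINF1 encodes PEDF, a secreted protein of the serpin fold without known protease inhibition, and it lies on chromosome 17 between SERPINF2 and SMYD4. In SNU-449 its level in control cultures was -1.01, -0.01 and -0.26. With galunisertib alone it was 2.32, 1.87 and 2.41. The 2 groups lay far apart, by 2.63 in the mean, and this is the difference by which the gene was chosen. The next largest rises in that comparison were those of SOWAHD (2.16) and CPA4 (2.09), and 5.45% of the 16101 genes tested were called higher, a count from which nothing is read for SERPINF1. With TGFβ1 alone the level was -1.58, -1.80 and -1.52, below all 3 controls and lower by 1.20 in the mean. That comparison shares the control arrays with the one that chose the gene and was not tested for it.

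The cultures that received both agents did not enter the choice of SERPINF1. Their levels were 0.36, 0.71 and 1.04, above all 3 cultures with TGFβ1 alone and above all 3 controls. Galunisertib added to TGFβ1 raised SERPINF1 by 2.34 ± 0.26 (SE, n = 3 per group; 95% confidence interval 1.75 to 2.92), or 5.05-fold, with an adjusted p of 0.000199 by limma. Within the 3 slides the rise was 1.94, 2.51 and 2.56. A lower level per cell and fewer cells with the transcript cannot be told apart in such bulk RNA.

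In PLC/PRF/5 the SERPINF1 probe was bright in every condition. Its level was 5.70, 5.45 and 5.49 in controls and 5.58, 5.51 and 5.59 with galunisertib alone, and these ranges overlapped. The difference was 0.01 (95% confidence interval -0.22 to 0.24, adjusted p = 0.963). With TGFβ1 the level was 6.01, 5.77 and 5.93, and with both agents it was 5.59, 5.28 and 5.38.

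TGFβ1 thus left the 3 PLC/PRF/5 cultures above all controls, by 0.35 ± 0.10 (SE), which missed the threshold (adjusted p = 0.0506) and passed it with the replicate number as a block (adjusted p = 0.0213; 0.00859 to 0.511 over 16 alternatives). Adding galunisertib to TGFβ1 lowered SERPINF1 by 0.48 on the log2 scale there (adjusted p = 0.00414), a call that was lost without scaling (-0.51, adjusted p = 0.220), in 1 fit over all arrays (0.0780), without replicate 3 (-0.45, adjusted p = 0.0763) and after scaling to the array median (-0.34, adjusted p = 0.246; 8.8e-05 to 0.246 over 16 alternatives). The direction is opposite to that in SNU-449. The effect of galunisertib added to TGFβ1 in SNU-449 exceeded that in the other line by 2.82 ± 0.29 (SE, adjusted p = 1.0e-06), against a median of -0.12 over all genes in that test.

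Ordered by mean, SERPINF1 was highest in PLC/PRF/5 with TGFβ1 (5.90 ± 0.12, SD, n = 3), followed by the other 3 PLC/PRF/5 groups, whose ranges overlap one another (5.56 with galunisertib, 5.55 in controls and 5.42 with both). SNU-449 followed with galunisertib (2.20 ± 0.29), both agents (0.70 ± 0.34), control (-0.43 ± 0.52) and TGFβ1 (-1.63 ± 0.15), and no 2 neighbors in this part of the order overlapped. Between the controls of the lines the mean differed by -5.98 (SNU-449 minus PLC/PRF/5), and the 3 values of each line were far from those of the other. This difference shares arrays with the choice of the gene and was not tested.

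**Figure D1:**
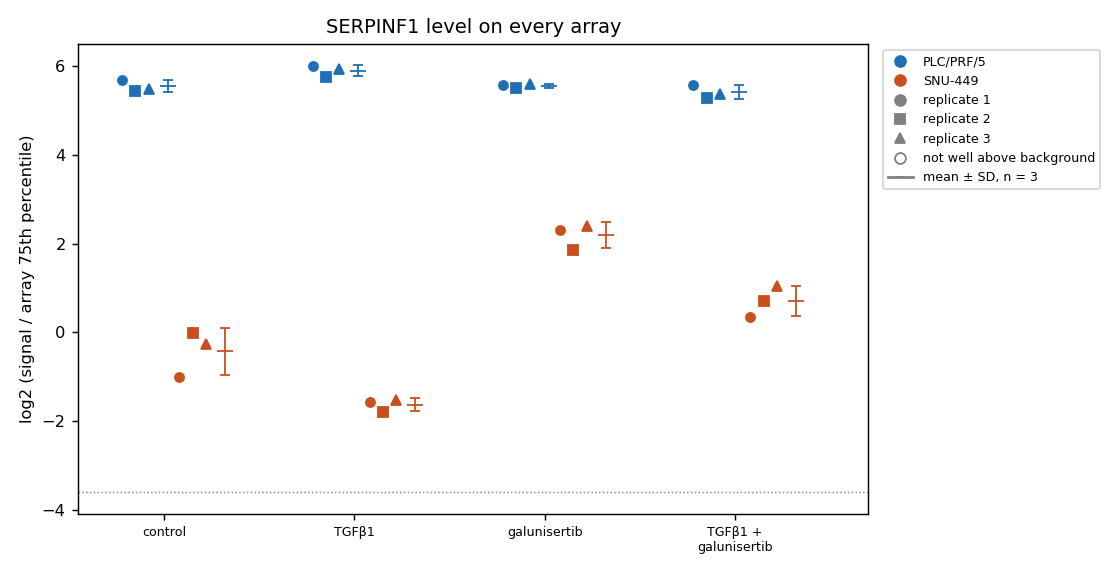
SERPINF1 level (vertical axis, log2 of signal over the array's 75th percentile) on each of the 24 arrays by treatment (horizontal axis), with the mean ± SD of 3 cultures beside the points. The dotted line marks the lowest level that can be given, -3.61. The PLC/PRF/5 points stay between 5.28 and 6.01, while the SNU-449 points run from -1.80 with TGFβ1 to 2.41 with galunisertib.

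The genes whose levels over the 12 SNU-449 arrays were most like SERPINF1, among 13978 genes well above background on all of them, were CCL2 (Pearson's r = 0.994), ERAP2 (0.993), SOWAHD (0.992), ADAMTS3 (0.991) and DKK1 (0.990). These points share 4 treatment groups and the arrays that chose SERPINF1, so the coefficients are descriptive. Among the other members the coefficient was -0.95 for PDGFB and -0.82 for PDGFA, and between -0.51 and 0.51 for ANGPTL4, THBS1, THBS2, FGF2 and VEGFB.

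The thrombospondins, matricellular glycoproteins that restrain endothelial cells, separated the lines more than the treatments did. THBS1, which can also release active TGFβ from its latent complex, had a level of 5.50, 5.31 and 5.45 in SNU-449 controls against -0.11, -0.54 and -0.52 in PLC/PRF/5 controls. The difference was 5.81 ± 0.11 (SE, adjusted p = 2.7e-20). In SNU-449 the 3 cultures with TGFβ1 read 5.66, 5.63 and 5.66, all above the controls but by only 0.23, which did not pass (adjusted p = 0.153). With galunisertib added to TGFβ1 the values were 5.15, 5.01 and 5.02, below every other SNU-449 group. That fall was 0.59 ± 0.09 (SE, adjusted p = 0.00140), and the call was lost without replicate 3 (adjusted p = 0.0560; 0.000331 to 0.0560 over 16 alternatives). The dimmer THBS1 probe fell by a like amount, 0.60 (adjusted p = 0.0125 with dimmer probes in the fit). No treatment of PLC/PRF/5 changed THBS1 past the threshold, and the effect of galunisertib added to TGFβ1 was lower in SNU-449 by 0.64 (adjusted p = 0.00334). That call was lost without replicate 3 (adjusted p = 0.0887) and with the dimmer probe (0.311; 0.00106 to 0.311 over 14 alternatives).

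THBS2, the second thrombospondin of the pair that carries the antiangiogenic repeats, was at background on every PLC/PRF/5 array. In SNU-449 controls it read 3.95, 4.04 and 3.96, at least 167-fold higher than in PLC/PRF/5 controls. The probe entered the fit over both lines only through SNU-449, where it is high, so no test of this difference is given. With TGFβ1 it read 3.50, 3.34 and 3.51, below all controls by 0.54, and with both agents 3.88, 3.96 and 4.17, above all TGFβ1 cultures by 0.56. Neither difference passed (adjusted p = 0.110 and 0.0729). With galunisertib alone the 3 values were 3.44, 3.88 and 4.35 and overlapped with every other group of the line. The dimmer probe varied less. It read between -0.03 and 0.10 in controls, between -0.36 and -0.18 with TGFβ1 and between 0.36 and 0.59 with both agents, and with dimmer probes in the fit the rise of 0.73 with galunisertib added to TGFβ1 passed (adjusted p = 0.000512; 0.000512 to 0.458 over 16 alternatives, of which 4 passed).

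ANGPTL4, a secreted inhibitor of lipoprotein lipase that also acts on endothelial junctions, followed TGFβ1 in both lines. In SNU-449 it read 2.07, 1.62 and 1.98 in controls and 3.45, 3.37 and 3.04 with TGFβ1, which did not overlap. The rise was 1.40 ± 0.19 (SE, adjusted p = 0.00111), or 2.63-fold. With both agents the values were 2.49, 1.90 and 2.19, again below every TGFβ1 culture, a fall of 1.09 ± 0.19 (adjusted p = 0.00303) that missed the threshold without replicate 2 (adjusted p = 0.0564) or 3 (0.0560; 8.1e-05 to 0.0564 over 16 alternatives). These comparisons share the TGFβ1 arrays. Galunisertib alone gave 2.59, 2.15 and 2.25, above the controls by 0.44, a description since the arrays are those of the choice.

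The ANGPTL4 values of PLC/PRF/5 were 1.83, 1.84 and 2.05 in controls, 2.61, 2.10 and 2.43 with TGFβ1, 1.54, 1.90 and 1.73 with galunisertib and 1.74, 1.54 and 1.70 with both. TGFβ1 stood above control by 0.48 ± 0.14 (adjusted p = 0.0474), which missed the threshold with the replicate number as a block (adjusted p = 0.0619) and without any one replicate (0.0841 to 0.283). It kept its call under 4 of 16 alternatives, over which the adjusted p ran from 0.0341 to 0.292. Adding galunisertib to TGFβ1 lowered it by 0.72 ± 0.14 (adjusted p = 0.00209; 0.0526 after scaling to the array median and 0.0718 without scaling, 0.00113 to 0.0718 over 16 alternatives), and this effect did not differ past the threshold between the lines (difference -0.37, 95% confidence interval -0.87 to 0.14, adjusted p = 0.272). Control levels of the lines overlapped.

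ANGPT2, the angiopoietin that loosens vessels and primes them to sprout, was measured above background in PLC/PRF/5 only, near the limit of detection. No SNU-449 array had the probe well above background. In PLC/PRF/5 it read -3.04, -3.18 and -2.96 in controls, with replicate 1 not well above background, and -3.61, -3.29 and -3.61 with TGFβ1, where only replicate 2 was above it. With galunisertib the level was -1.80, -2.35 and -1.54 and with both agents -1.63, -1.90 and -1.62, all well above background. The 3 arrays of each galunisertib group thus lay above every PLC/PRF/5 array without the inhibitor. The means differed by 1.16 for galunisertib alone and by 1.78 for galunisertib added to TGFβ1. The probe entered this fit only through the groups with galunisertib, where it was high, and the compared groups hold arrays with only an upper bound, so these differences are given as a description. With background modeling by normexp the difference for galunisertib alone came down to 0.32. Since the probe was above background on 2 of 3 control arrays of PLC/PRF/5 and on 0 of SNU-449, no fold between the lines is given.

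The PDGF chains, ligands for the receptors of pericytes and fibroblasts, responded to TGFβ1. PDGFA read 0.40, 0.46 and 0.53 in PLC/PRF/5 controls and 0.74, 0.43 and 0.59 in SNU-449 controls, which overlapped (difference 0.12, adjusted p = 0.448; 0.0145 to 0.954 over 15 alternatives). The dimmer PDGFA probe was lower in SNU-449 controls on all 3 slides, by a mean difference of -0.82 (adjusted p = 0.0145 with dimmer probes in the fit). With TGFβ1 the brighter PDGFA probe read 2.40, 2.60 and 2.66 in SNU-449, above all other arrays of the line. The rise was 1.97 ± 0.10 (SE, adjusted p = 2.3e-06), or 3.91-fold. With both agents the level was 0.19, 0.06 and 0.06, a fall of 2.45 ± 0.10 from the TGFβ1 arrays (adjusted p = 5.6e-07) to a mean below every control. Galunisertib alone gave 0.16, 0.20 and 0.22, also below every control, by 0.39, untested.

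PDGFA in PLC/PRF/5 read 1.67, 1.31 and 1.70 with TGFβ1, a rise of 1.10 ± 0.16 (adjusted p = 0.00163), and 0.63, 0.67 and 0.15 with both agents, a fall of 1.07 ± 0.16 (adjusted p = 0.000523). Galunisertib alone gave 0.27, 0.60 and 0.66, which overlapped with control (adjusted p = 0.886). The fall with galunisertib added to TGFβ1 was larger in SNU-449 by 1.38 ± 0.19 (SE, adjusted p = 3.9e-05). With the dimmer PDGFA probe that difference shrank to 0.74 and did not pass (adjusted p = 0.182; 4.0e-05 to 0.182 over 14 alternatives), while the rise with TGFβ1 and the fall with added galunisertib passed in both lines.

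PDGFB was higher in SNU-449 controls (3.40, 3.62 and 3.64) than in PLC/PRF/5 controls (2.11, 1.85 and 1.79), by 1.63 ± 0.11 (SE, adjusted p = 6.6e-11). With TGFβ1 it rose in PLC/PRF/5 to 2.62, 2.73 and 2.59, by 0.73 ± 0.12 (adjusted p = 0.00252), a call that was lost without replicate 2 (0.0740) or 3 (0.0851; 0.000137 to 0.0851 over 16 alternatives), and it stood at 1.83, 1.93 and 1.95 with both agents, lower by 0.75 ± 0.12 (adjusted p = 0.000638). In SNU-449, TGFβ1 gave 3.97, 3.87 and 3.88, above all controls by 0.36, short of the threshold (adjusted p = 0.0652). Both agents gave 3.14, 3.37 and 2.99, lower than TGFβ1 alone by 0.74 ± 0.11 (adjusted p = 0.00101).

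The fall of PDGFB with added galunisertib was nearly the same size in the lines, with a difference of 0.01 (95% confidence interval -0.32 to 0.33, adjusted p = 0.982). Galunisertib alone went apart. In SNU-449 it gave 2.61, 2.61 and 2.63, below every control by 0.93 (no test), and in PLC/PRF/5 2.48, 2.08 and 2.28, above control by 0.36 with overlapping ranges (adjusted p = 0.0948). Whether these 2 effects differ was not tested, because the SNU-449 arrays are those of the choice.

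**Figure D2:**
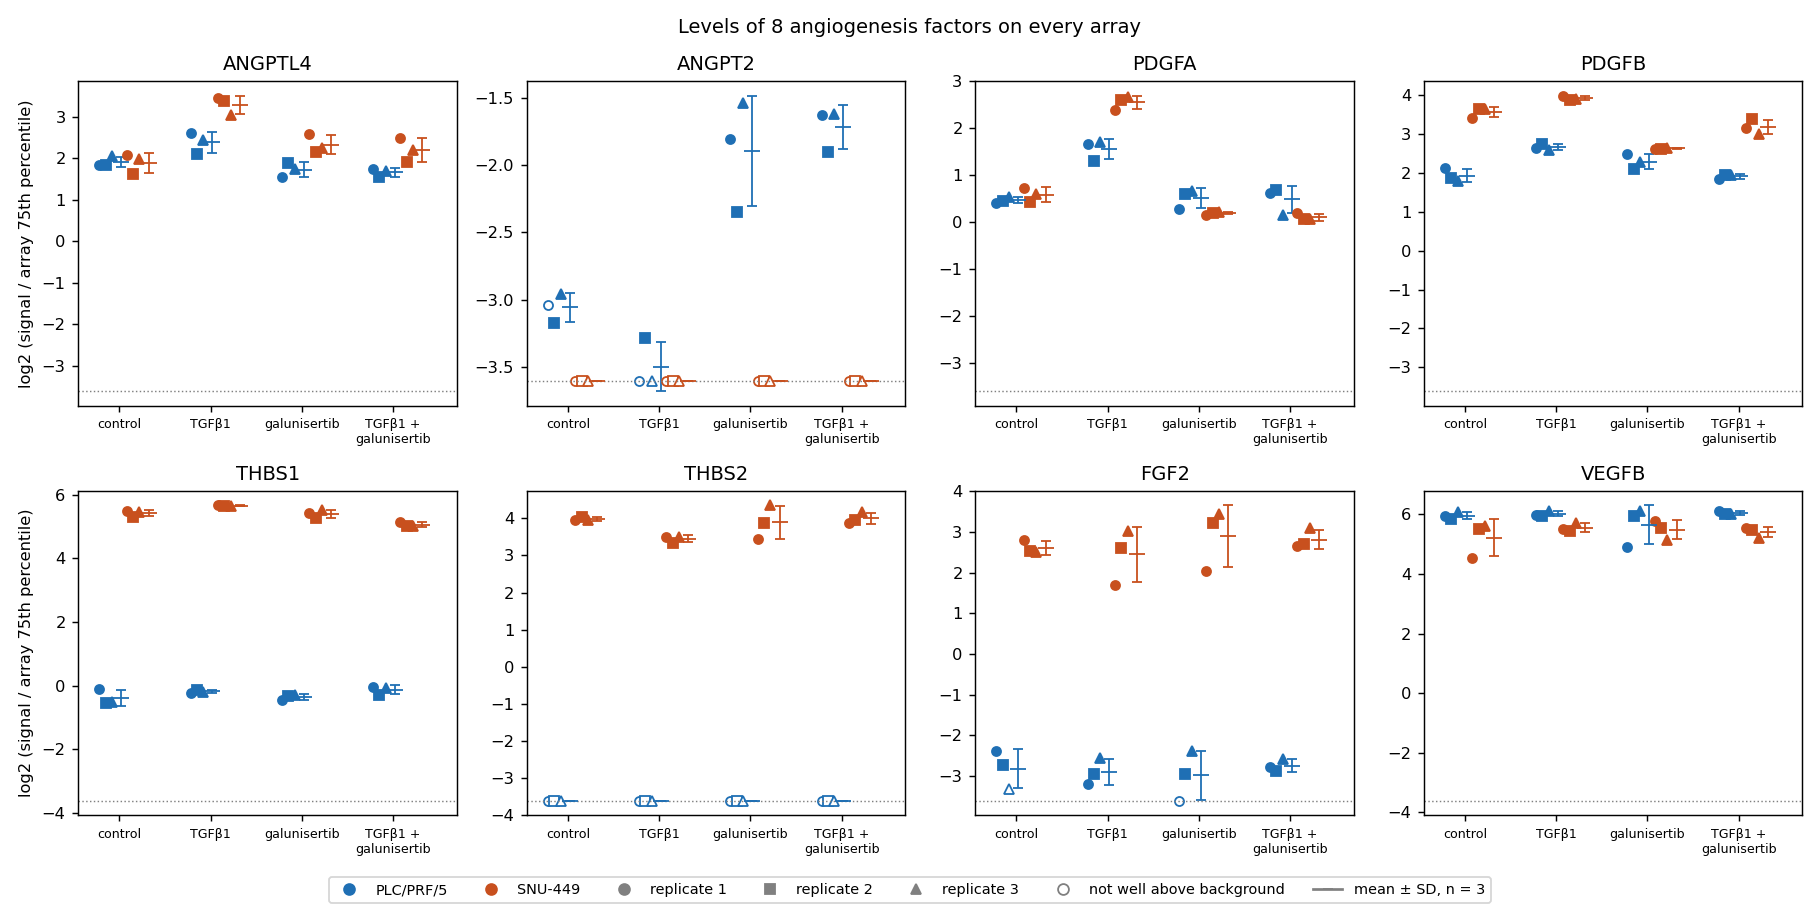
Levels of the 8 other factors that were measured above background (vertical axes, log2 of signal over the array's 75th percentile, each panel on its own scale) on every array by treatment, with mean ± SD of 3 cultures beside the points. Open points were not well above background and the dotted line is the lowest level that can be given. PDGFA and ANGPTL4 peak with TGFβ1 in both lines, ANGPT2 is seen in PLC/PRF/5 only, and THBS1, THBS2 and FGF2 are far higher in SNU-449.

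FGF2, a heparin-binding mitogen of endothelial cells, was far higher in SNU-449. Its brighter probe read 2.80, 2.52 and 2.50 in SNU-449 controls against -2.38, -2.74 and -3.33 in PLC/PRF/5 controls, a difference of 5.43 ± 0.37 (SE, adjusted p = 6.9e-11). The last of these PLC/PRF/5 values was not well above background and is an upper bound. On that probe no treatment that was tested passed in either line, and galunisertib alone in SNU-449 was not tested. In SNU-449 it read 1.71, 2.62 and 3.02 with TGFβ1, 2.03, 3.21 and 3.44 with galunisertib and 2.65, 2.70 and 3.09 with both, and the ranges overlapped.

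The dimmer FGF2 probe gave another picture in SNU-449. It read 0.90, 0.23 and 0.78 in controls and 1.48, 1.49 and 1.81 with TGFβ1. With galunisertib it was -1.65, -0.05 and -3.61, and with both agents -3.61, -3.61 and -0.45, where 2 of 3 arrays were not well above background. The mean of this probe with both agents lay 4.15 below that with TGFβ1 alone on the log2 scale. On the brighter probe the difference was 0.36 in the other direction. The dimmer probe entered the fit only through the groups without galunisertib, where it was high. The size of its difference depends on the floor, so it is given as a description with no test. Both probes carry the same transcript accession, and both lie within the outermost 5 columns of the array, as do the VEGFB probe and the brighter PDGFA probe. The part of that position in these values was not tested. No direction of FGF2 with treatment is therefore given.

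**Figure D3:**
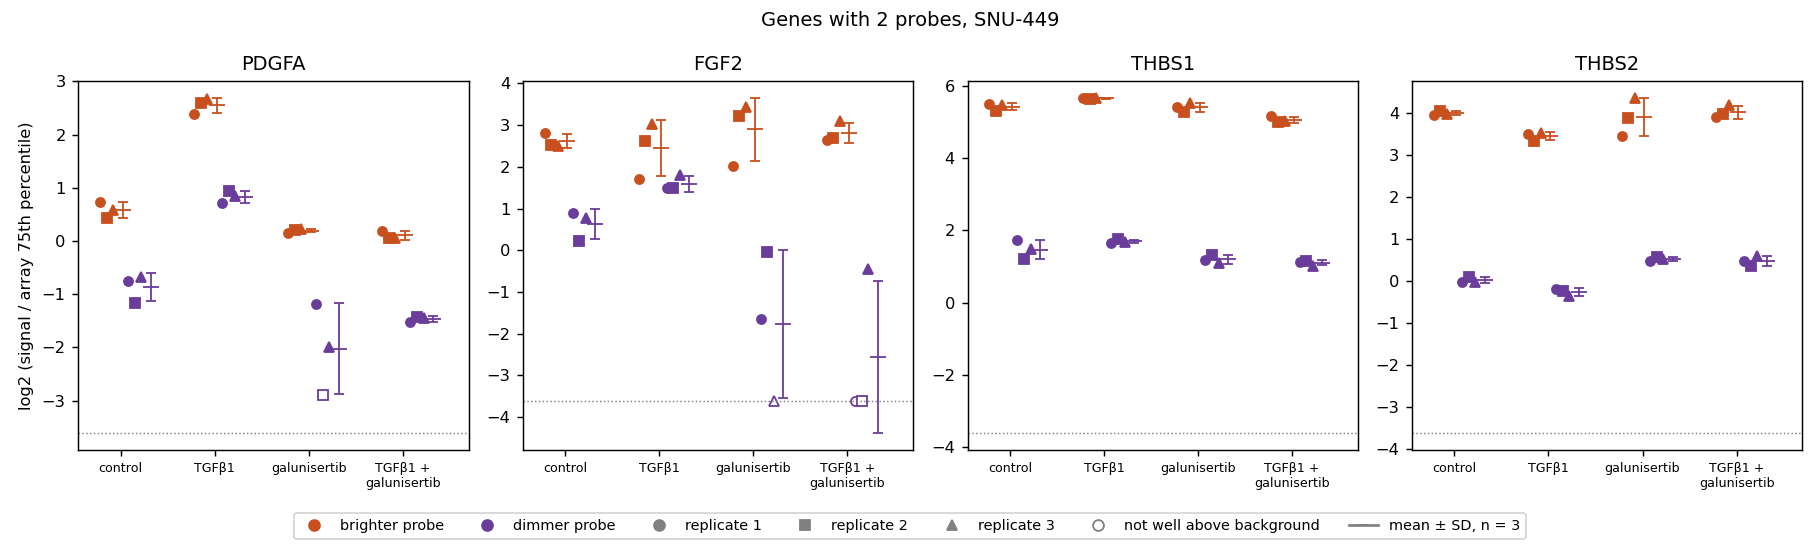
SNU-449 levels (vertical axes, log2 of signal over the array's 75th percentile) of the brighter and the dimmer probe of the 4 members with 2 probes, by treatment, with mean ± SD of 3 cultures. The probes of PDGFA, THBS1 and THBS2 move the same way with TGFβ1, while for FGF2 the dimmer probe falls with galunisertib to between -3.61 and -0.05 and the brighter one stays between 1.71 and 3.44.

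VEGFB, a ligand of VEGF receptor FLT1 with a weak effect on vessel growth, was bright on all arrays, from 4.91 to 6.13 in PLC/PRF/5 and from 4.53 to 5.77 in SNU-449. It passed with no treatment that was tested (adjusted p from 0.483 to 0.948), and galunisertib alone in SNU-449 was not tested. Its control level was lower in SNU-449 (4.53, 5.53 and 5.63) than in PLC/PRF/5 (5.94, 5.86 and 6.09), by 0.74 ± 0.27 (SE, adjusted p = 0.0205), with replicate 1 far below the other SNU-449 cultures. Without replicate 1 the difference was -0.40 (adjusted p = 0.0484). The call was lost after median scaling (adjusted p = 0.197), without scaling (0.0591), without replicate 2 (0.0634) and under the methods' t-test (0.149; 0.00573 to 0.197 over 15 alternatives). VEGFC, the ligand that drives lymphatic growth, was at background on all 24 arrays and could not be tested.

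By count, 8 of the 10 members entered the fit of each line. With TGFβ1 in SNU-449, 2 of the 7 that could be tested rose (ANGPTL4 and PDGFA), where 5.81% of all genes tested rose, and 0 fell by limma, where 4.15% of all genes fell. An unadjusted limma p below 0.05 was met by 3822 of the 16101 genes, in either direction. At that limit THBS2 was lower, and PDGFB and THBS1 were higher as well. THBS2 also passed under the methods' t-test. With TGFβ1 in PLC/PRF/5, 3 of 8 rose (ANGPTL4, PDGFA and PDGFB; 6.08% of all genes) and 0 fell by limma (5.95%) or under the methods' t-test. An unadjusted limma p below 0.05 was met by 4363 of 16684 genes there, and SERPINF1 was higher at that limit as well. The ANGPT2 difference of -0.44 is a description, since only 1 of 3 TGFβ1 arrays and 2 of 3 control arrays had it well above background. The median over the 8 members in the fit was 0.28 in each line. The median of all genes was 0.04 for SNU-449 and -0.02 for the other line.

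**Figure D4:**
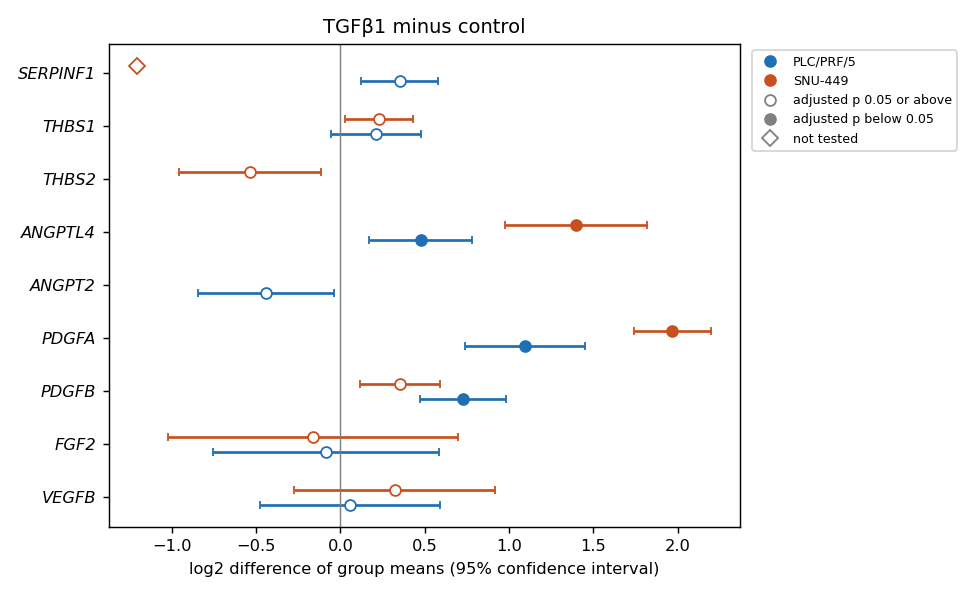
Difference between TGFβ1 and control cultures for each member (horizontal axis, log2, with 95% confidence intervals) in the 2 lines. Filled points passed at an adjusted p below 0.05, open points did not, and the diamond is SERPINF1 in SNU-449, which was not tested. PDGFA shows the largest rise in both lines, 1.97 and 1.10.

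When galunisertib was added to TGFβ1, 1 of 8 members rose in SNU-449 (SERPINF1; 8.50% of all genes rose) and 4 fell (THBS1, ANGPTL4, PDGFA and PDGFB; 7.69%). In PLC/PRF/5, 1 of 8 was called higher (27.0%), ANGPT2, which entered the fit only through the groups where it was high, and 4 fell (SERPINF1, ANGPTL4, PDGFA and PDGFB; 12%). The median of the members in the fit was -0.37 in SNU-449, against -0.01 over all genes, and -0.23 in PLC/PRF/5, against 0.09. Galunisertib alone was called for 1 of 8 in PLC/PRF/5, again ANGPT2, where 3.60% of all genes rose and 1.35% fell. The way ANGPT2 entered the fit applies here too, so nothing is read from its calls. The difference between the lines passed for 3 of 7 members, higher in SNU-449 for SERPINF1 (11.2% of all genes) and lower for PDGFA and THBS1 (18.9%). Between control cultures, 4 of 8 members were called higher in SNU-449 (THBS1, THBS2, PDGFB and FGF2; 36.2% of all genes) and 2 lower (ANGPT2 and VEGFB; 31.6%). Of these, THBS2 and ANGPT2 had entered the fit only through the line where each was high, so their calls say nothing further.

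**Figure D5:**
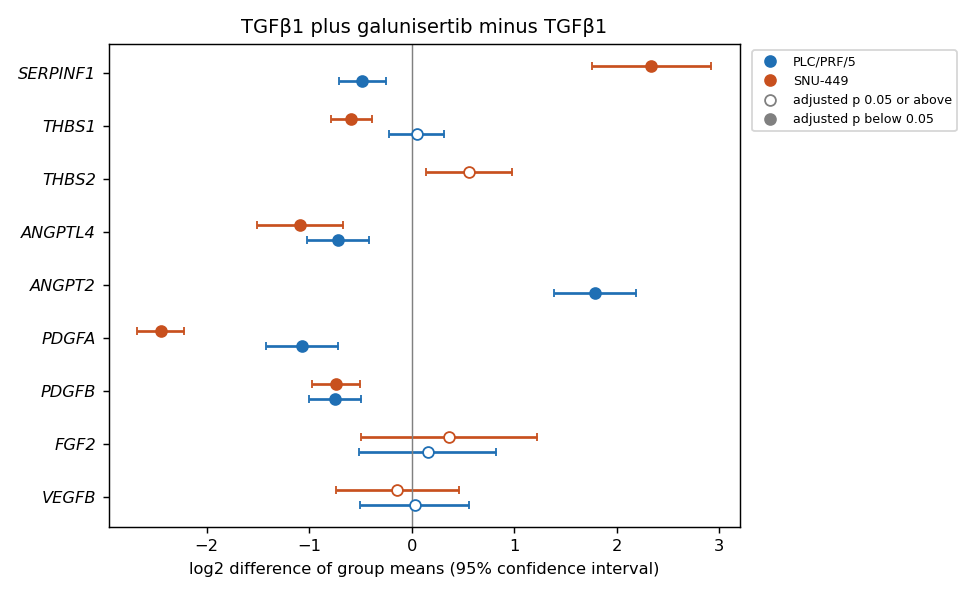
Difference between cultures with TGFβ1 plus galunisertib and cultures with TGFβ1 alone for each member (horizontal axis, log2, with 95% confidence intervals) in the 2 lines. Filled points passed at an adjusted p below 0.05. SERPINF1 rose by 2.34 in SNU-449 and fell in PLC/PRF/5, and PDGFA, PDGFB and ANGPTL4 fell in both. ANGPT2, measured in PLC/PRF/5 only, stands at 1.78 against TGFβ1 arrays of which 1 of 3 was well above background. It entered that fit only through the groups where it was high, so its filled point is not read as a call.

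The stricter limits of the study are more than 2-fold with P below 0.001 before adjustment. Galunisertib added to TGFβ1 then called SERPINF1, ANGPTL4 and PDGFA in SNU-449 (3.86% of all genes were called) and PDGFA in PLC/PRF/5 (3.16%). ANGPT2 also met these limits in PLC/PRF/5. It entered that fit only through the groups where it was high, so nothing is read from this. TGFβ1 alone called ANGPTL4 and PDGFA in SNU-449 (2.34%) and PDGFA in PLC/PRF/5 (1.09%).

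Promoter windows were searched for the CAGA box that SMAD proteins bind, here CAGAC or its reverse complement GTCTG. A match is a description of the sequence, and its part in any change was not tested. RefSeq windows on GRCh38.p14 were at hand for 7 of the 10 members, SERPINF1 not among them, and the 250 bases before each start were read. The motif was in 5 of their 10 windows, and in 38.0% of 35116 windows of the same length over all genes. THBS2 held 3 matches, and VEGFB, which passed with no treatment that was tested, held 1. The windows of ANGPTL4, PDGFA and THBS1 are shown because these genes changed and hold a match. PDGFA has 4 annotated starts, and the window shown is the one that holds the motif. Each runs 5′ to 3′ on the strand of the gene, with the motif in capitals.
ANGPTL4, chr19:8363905-8364154, plus strand: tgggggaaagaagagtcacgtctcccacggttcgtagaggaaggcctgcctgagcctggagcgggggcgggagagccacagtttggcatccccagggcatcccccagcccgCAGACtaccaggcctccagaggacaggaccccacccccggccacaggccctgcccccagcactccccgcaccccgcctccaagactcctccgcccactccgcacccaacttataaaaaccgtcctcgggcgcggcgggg
PDGFA, chr7:520701-520950, minus strand: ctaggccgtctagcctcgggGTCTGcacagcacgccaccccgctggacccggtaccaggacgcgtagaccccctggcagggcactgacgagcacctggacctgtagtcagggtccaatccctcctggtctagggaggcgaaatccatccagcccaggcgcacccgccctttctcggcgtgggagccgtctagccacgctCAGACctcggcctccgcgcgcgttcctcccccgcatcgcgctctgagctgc
THBS1, chr15:39580829-39581078, plus strand: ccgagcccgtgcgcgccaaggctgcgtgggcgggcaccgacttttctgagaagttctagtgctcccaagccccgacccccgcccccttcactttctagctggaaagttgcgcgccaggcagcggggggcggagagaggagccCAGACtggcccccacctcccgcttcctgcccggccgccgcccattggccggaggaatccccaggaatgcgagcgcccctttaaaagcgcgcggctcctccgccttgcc

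Other genes of the same families were read from a list of 42 receptors, ligands and inhibitors. With galunisertib added to TGFβ1, 3 of the 21 tested rose in SNU-449 and 4 fell, where 8.50% of all genes rose and 7.69% fell. In the other line 8 of 22 rose and 7 fell, where 27.0% and 12% of all genes did. With TGFβ1 alone, 3 of 21 rose and 1 fell in SNU-449 (5.81% and 4.15% of all genes). In PLC/PRF/5, 4 of 22 rose and 3 fell (6.08% and 5.95%). FLT4, ANGPTL6 and FGFR2 went the other way from PDGFA there. Their mean levels were -1.91, -1.15 and 0.12 in controls, -2.95, -1.94 and -0.60 with TGFβ1 and -2.07, -1.13 and 0.57 with both agents. NRP2, a co-receptor for VEGF ligands, passed in the same directions as PDGFA. It rose with TGFβ1 by 0.73 in SNU-449 (adjusted p = 0.0209) and by 1.56 in PLC/PRF/5 (adjusted p = 0.000352), and fell when galunisertib was added, by 1.20 (adjusted p = 0.000777) and 1.90 (adjusted p = 3.3e-05). VEGFD, a ligand of the VEGF family, went the other way from NRP2 in SNU-449, at low levels. Its means were -2.50 in controls, -3.19 with TGFβ1 and -1.72 with both agents, and only the rise with added galunisertib was called.

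PDGFRB, the receptor for PDGFB, rose with TGFβ1 in PLC/PRF/5 by 0.69 (adjusted p = 0.00552) and fell by 1.04 with added galunisertib (adjusted p = 0.000149). COL18A1, whose protein yields the inhibitor endostatin, rose with TGFβ1 by 0.51 in SNU-449 (adjusted p = 0.0134) and 0.40 in PLC/PRF/5 (adjusted p = 0.0115). When galunisertib was added to TGFβ1, its mean level went from 8.48 to 7.96 in SNU-449 and from 7.54 to 7.23 in PLC/PRF/5. Of the proposed PEDF receptors, PLXDC2 was measured in SNU-449 only, where its level rose by 1.91 with TGFβ1 (adjusted p = 0.00616) and fell by 2.51 with added galunisertib (adjusted p = 0.000766). LRP6 was called higher with galunisertib added to TGFβ1 in both lines. Its mean level went from 2.65 to 2.95 in SNU-449 and from 2.81 to 3.14 in PLC/PRF/5. PNPLA2 passed with no treatment in either line.

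SERPINF2, the gene beside SERPINF1, encodes the main inhibitor of plasmin. It was well above background on 1 of 12 SNU-449 arrays. In PLC/PRF/5, where SERPINF1 differed by 0.01 with galunisertib alone, SERPINF2 fell by 1.02 (adjusted p = 0.00342), and with galunisertib added to TGFβ1 it fell by 1.21 (adjusted p = 8.9e-05), where SERPINF1 fell by 0.48 on the log2 scale.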

How the data were processed

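RNA from 2 HCC lines under 4 conditions, with 3 independent cultures each, was hybridized to 24 one-color Agilent SurePrint G3 arrays on 3 slides of 8. The slide number is the replicate number, and all arrays were scanned on 1 day. The authors deposited the scanner output of Agilent Feature Extraction 10.7.3.1, in which the processed signal is an intensity after background subtraction, not scaled between arrays. Normalized log2 values that the authors deposited beside it, centered by probe, served as an alternative. The members and gene lists were chosen with earlier results of these data known.

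Control spots and outlier spots (111 to 216 per array) were left out, repeat spots were averaged by probe, and levels are log2 of the value over the 75th percentile of probes on that array, with a floor at 8.22% of that percentile. Of 58201 probes, 31104 were named through the accession of the array in the RefSeq gene table. To enter a fit, a probe had to be well above background in all 3 cultures of some group, and the brightest probe stood for a gene. limma 3.58.1 (R 4.3.3; lmFit, contrasts.fit, eBayes) was fitted over the 12 arrays of a line, or over all 24 for comparisons between lines, with Benjamini-Hochberg adjustment over 16101 (SNU-449), 16684 (PLC/PRF/5) or 17902 genes (both). SERPINF1 was not tested where SNU-449 control or galunisertib arrays enter, nor was any member with galunisertib alone in SNU-449. limma stands in for the random-variance test of the study's methods, and a plain t-test is an alternative. The number of arrays limits the precision. The fit was tested on simulated data.

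All 10 members are named in the text, and a related gene is named only if it passed a test or is SERPINF1's neighbor or proposed receptor. Samples of a number deviated together in all 3 pairs (correlation above 0.1) for TGFβ1 alone in both lines (0.13 to 0.22 in SNU-449 and 0.17 to 0.30 in PLC/PRF/5) and for galunisertib added to TGFβ1 in SNU-449 (0.10 to 0.27), and the number is the slide. Alternatives were other scalings (quantile, array median, none), normexp background correction with an offset of 50 on median rather than mean signals, which are what the files used here hold, other filters, a lower floor, the mean of all probes, the deposited log2 values, the replicate block, 1 fit over all arrays, the t-test and leaving out each replicate. The fit with the dimmest tested probe was chosen after seeing the data. Promoter sequences came from RefSeq (GRCh38.p14). One gene of the check of the treatments is not reported here.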

Additional observations from a re-analysis of the deposited data

Results flagged for a closer look

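For 3 members the 2 lines responded differently to galunisertib added to TGFβ1, as tested by the interaction of line and treatment. The effect in SNU-449 minus that in PLC/PRF/5 was 2.82 for SERPINF1 (adjusted p = 1.0e-06), where all 3 slides gave a rise in SNU-449 (1.94, 2.51 and 2.56) and a fall in PLC/PRF/5 (-0.42, -0.48 and -0.55). It was -1.38 for PDGFA (adjusted p = 3.9e-05) and -0.64 for THBS1 (adjusted p = 0.00334). Of these, SERPINF1 was past the threshold under all 14 alternatives, PDGFA under 13 and THBS1 under 12. Alternatives on probes, filters and the floor left the level of SERPINF1 unchanged. The groups of 3 are too small for a test of single outlying arrays.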

How the results depend on the processing

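The rise of SERPINF1 with galunisertib added to TGFβ1 in SNU-449 kept its direction and its side of the threshold under all 16 alternatives (1.54 to 2.54, adjusted p from 6.2e-08 to 0.0215), as did its difference between the lines under all 14 (2.01 to 3.05). SERPINF1 has a single probe that was never at the floor. The settings on probes, filters and the floor thus left its level unchanged and could alter only its test. PDGFA did so with TGFβ1 and with added galunisertib in both lines, and PDGFB with added galunisertib in both. Across members and alternatives, 40 values lost the call, 16 gained it and 50 changed sign, and 0 of these sign changes met a result that had passed. The cause of these changes was not tested, and signal near background limits ANGPT2 and the dimmer probes.

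For SERPINF1 in PLC/PRF/5, the fall with galunisertib added to TGFβ1 did not pass with median scaling (-0.34), without scaling (-0.51), with 1 fit over all arrays (-0.48) or without replicate 3 (-0.45). Without 1 replicate it was -0.52 to -0.45. The rise of SERPINF1 with TGFβ1 passed with quantile normalization (0.39), normexp (0.42) and the replicate block (0.35). It also passed with the stricter filter (0.35) and the mean of all probes (0.35), where its level was unchanged and only its test differed. With galunisertib alone the value turned to -0.11 under quantile normalization. Normexp moved untested values in SNU-449 to -0.69 (TGFβ1), 2.10 (galunisertib) and -5.25 (against control PLC/PRF/5).

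Signs turned with the mean of all probes and the dimmer probe, respectively, for FGF2 in SNU-449 with galunisertib added to TGFβ1 (-1.89 and -4.15), TGFβ1 (0.40 and 0.96), galunisertib (-1.06 and -2.40) and between the lines (-1.96 and -4.12), for galunisertib alone in PLC/PRF/5 in THBS1 (-0.091 and -0.22) and PDGFA (-0.30 and -0.65), for THBS1 in PLC/PRF/5 with added galunisertib (-0.065 and -0.18), and for PDGFA between controls (-0.35 and -0.82). With the dimmer probe alone they turned for THBS2 with galunisertib in SNU-449 (0.50) and THBS1 with TGFβ1 in PLC/PRF/5 (-0.020). Scaling or normexp turned VEGFB in PLC/PRF/5 with added galunisertib (quantile -0.25, none -0.00062, normexp -0.023) and between the lines (quantile 0.20), FGF2 in PLC/PRF/5 with added galunisertib (normexp -0.021) and TGFβ1 (none 0.16) and between the lines (median -0.094), ANGPTL4 between controls (median 0.28, none 0.029) and PDGFB between the lines (median -0.30, none -0.12).

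Leaving out 1 replicate turned values that had not passed. The ranges were -0.23 to 0.041 for VEGFB with galunisertib added to TGFβ1 and -0.24 to 0.62 with galunisertib in SNU-449, and -0.029 to 0.097 and -0.50 to 0.056 in PLC/PRF/5. For FGF2 they were -0.50 to 0.31 with TGFβ1 in SNU-449, and -0.51 to 0.27 with TGFβ1 and -0.72 to 0.36 with galunisertib in PLC/PRF/5. With galunisertib in PLC/PRF/5 they were -0.033 to 0.080 for SERPINF1 and -0.068 to 0.23 for THBS1, which ran from -0.022 to 0.16 with added galunisertib. They were -0.15 to 0.084 for ANGPTL4 between controls and -0.14 to 0.14 for PDGFB between the lines.

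Counts of all genes called moved more. In SNU-449, galunisertib added to TGFβ1 called 2607 genes, against 1331 with median scaling, 3989 with 1 fit over all arrays and 1005 to 1784 without 1 replicate. TGFβ1 called 1604, against 672, 2690 and 537 to 758, and galunisertib 1199, against 224, 2693 and 138 to 279, or 329 without scaling. In PLC/PRF/5, galunisertib called 827, against 84 with median scaling, 36 without scaling, 379 with normexp, 75 with the t-test and 2 to 52 without 1 replicate. Galunisertib added to TGFβ1 called 6512, against 3537 with median scaling, 1018 without scaling and 3565 to 4399 without 1 replicate, and TGFβ1 2006, against 454, 504 and 419 to 710. The difference between the lines called 5379, against 3520, 1701 and 2589 to 3523.

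The share of calls that were higher also moved with scaling, for galunisertib added to TGFβ1 in SNU-449 from 52.5% to 30.4% (median) and 30.2% (none), and in PLC/PRF/5 from 69.2% to 81.9% and 44.5%, or 55.8% (quantile). For galunisertib alone it moved from 73.1% to 48.2% and 29.2% in SNU-449 and from 72.7% to 59.5% and 50% in PLC/PRF/5, or 58.4% (quantile). Between controls it moved from 53.4% to 67.0% (median), and for the difference between the lines from 37.2% to 18.8% (median) and 53.7% (quantile). For TGFβ1 it moved from 58.4% to 73.5% and 75.3% in SNU-449 and from 50.6% to 67.8% and 93.1% in PLC/PRF/5, or 61.3% (normexp). Median scaling moved the median of all genes from -0.01 to -0.17 for galunisertib added to TGFβ1 in SNU-449, from 0.09 to 0.23 in PLC/PRF/5, from -0.0012 to 0.28 between controls and from -0.12 to -0.40 for the difference between the lines.

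With the replicate number, which is the slide, as a block, the counts were 2471 and 1534 in SNU-449 (galunisertib added to TGFβ1 and TGFβ1) and 1973 in PLC/PRF/5 (TGFβ1), where pairs deviated together. Among members the block changed the calls of SERPINF1 and ANGPTL4 with TGFβ1 in PLC/PRF/5 (adjusted p = 0.0213 and 0.0619) and no other. Where pairs did not deviate together it gave 990, 669 and 6546 (galunisertib alone in each line and added in PLC/PRF/5), 12414 between controls and 5656 for the difference between the lines.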
